A study of Homo sapiens with 16 samples.

Results

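Spindle, kinetochore and cytokinesis genes were followed through drug treatment in MDA-MB-231, a human breast cancer cell line that lacks hormone receptors. The 60 genes were chosen by name, as a set of genes that build the mitotic machinery, with earlier results of these data known. Their counts beside those of all genes are therefore descriptive. All 60 were looked up by symbol in the deposited count matrix. Of these, 59 had a row and all 59 held enough counts to be tested, out of 37864 genes in the matrix and 17991 tested. SKA1 was not analysed here. Cells were given the solvent DMSO, afatinib, paclitaxel or afatinib and paclitaxel together (the combination), with 4 libraries per group and 16 in all. All groups shared the same serum-supplemented medium, per the labels, and no dose or exposure time was given in the sources used here. The labels do not say whether libraries of a group came from separate cultures, so the p-values below measure the spread between these libraries, which may be technical.

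At the entry into mitosis, cyclin-dependent kinase 1 (CDK1) is activated and chromosomes are compacted by condensins. Microtubules of the spindle attach to kinetochores, protein assemblies on the centromere, and the spindle checkpoint blocks the anaphase-promoting complex (APC/C) until every kinetochore is attached. The APC/C then marks securin and cyclin B for destruction, separase opens cohesin, and a contractile ring divides the cell. Paclitaxel stabilises microtubules and keeps this checkpoint active, and afatinib irreversibly inhibits kinases of the EGFR family. Many of these genes are transcribed in G2 and M phase, under the DREAM complex, MYBL2 and FOXM1, through promoter elements such as the cell cycle homology region (CHR) and the CCAAT box.

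The libraries held 28.4M to 48.1M counts. The labels give more RNA per µl for replicates 1 and 2 of each group than for replicates 3 and 4, and a term for these pairs of replicates (the set) was in each fit. The set term was called in 69.5% of all genes tested, and among the 59 genes 16 were higher and 26 lower in replicates 3 and 4. RNA concentration also moved with treatment within a set. In replicates 1 and 2 it averaged 1170.7 ng/µl for DMSO, 1002 for afatinib, 388 for paclitaxel and 623 for the combination. In replicates 3 and 4 it averaged 311, 184, 252 and 143 ng/µl in the same order. Summed levels of 5 mesenchymal markers of this line lay between 3957 and 6871 CPM in every library. The 6 luminal breast markers summed to 21.0 to 29.03 CPM, with ESR1, CDH1 and KRT19 near 0. Afatinib libraries (23.6 to 25.8 CPM) lay below those of DMSO (26.2 to 28.5 CPM) for this sum, and its part in the results was not tested. Markers of blood (4 of 6 in the matrix, 0 to 0.197 CPM), endothelium (4 of 4, 2.696 to 9.25 CPM) and fibroblasts (4 of 5, 12.2 to 27.6 CPM) were low, and their ranges overlapped between all 4 groups.

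Promoters of 6 genes are shown as picked examples. The first 3 belong to genes that rose with paclitaxel and the last 3 to genes that fell. All 6 carry a CHR and a CCAAT box. They are RefSeq sequences on GRCh38.p14, from 250 bases before to 50 bases after the start of transcription, 5′ to 3′ on the gene's strand. Capitals mark the CHR (TTTGAA or TTTAAA), the CCAAT box (CCAAT) and the E2F site (TTTCCCGC, TTTGGCGC, TTTCGCGC or TTTGCCGC), each on either strand. The windows are chr1:43358731-43359030, chr9:89310945-89311244 and chr1:37692266-37692565 for CDC20, CKS2 and CDCA8, all on the plus strand. Those of CKS1B and NUSAP1 are chr1:154974431-154974730 and chr15:41332631-41332930 on the plus strand, and that of TOP2A is chr17:40417847-40418146 on the minus strand.
CDC20: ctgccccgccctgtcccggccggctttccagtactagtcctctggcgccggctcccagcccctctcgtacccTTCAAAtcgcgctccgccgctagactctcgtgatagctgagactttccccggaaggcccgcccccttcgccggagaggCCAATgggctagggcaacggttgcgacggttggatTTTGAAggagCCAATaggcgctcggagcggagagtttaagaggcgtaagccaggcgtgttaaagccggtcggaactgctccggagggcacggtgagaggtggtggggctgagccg
CKS2: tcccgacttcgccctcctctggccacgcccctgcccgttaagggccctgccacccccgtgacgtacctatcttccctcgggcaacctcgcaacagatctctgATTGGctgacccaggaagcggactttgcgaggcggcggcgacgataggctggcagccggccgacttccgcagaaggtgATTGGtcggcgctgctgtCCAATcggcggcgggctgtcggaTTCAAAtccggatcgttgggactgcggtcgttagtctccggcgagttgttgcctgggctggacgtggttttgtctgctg
CDCA8: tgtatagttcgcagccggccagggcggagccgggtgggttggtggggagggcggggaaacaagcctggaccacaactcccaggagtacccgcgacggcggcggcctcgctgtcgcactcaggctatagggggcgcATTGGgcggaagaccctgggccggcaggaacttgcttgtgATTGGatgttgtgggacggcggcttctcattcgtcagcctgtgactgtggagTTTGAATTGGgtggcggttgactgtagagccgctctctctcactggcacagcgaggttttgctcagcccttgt
CKS1B: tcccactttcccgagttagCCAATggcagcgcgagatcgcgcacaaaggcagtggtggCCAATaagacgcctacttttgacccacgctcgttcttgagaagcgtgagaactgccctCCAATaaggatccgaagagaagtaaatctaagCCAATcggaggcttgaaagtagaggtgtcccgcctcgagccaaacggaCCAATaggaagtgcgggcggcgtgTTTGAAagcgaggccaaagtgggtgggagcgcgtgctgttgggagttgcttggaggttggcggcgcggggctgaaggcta
TOP2A: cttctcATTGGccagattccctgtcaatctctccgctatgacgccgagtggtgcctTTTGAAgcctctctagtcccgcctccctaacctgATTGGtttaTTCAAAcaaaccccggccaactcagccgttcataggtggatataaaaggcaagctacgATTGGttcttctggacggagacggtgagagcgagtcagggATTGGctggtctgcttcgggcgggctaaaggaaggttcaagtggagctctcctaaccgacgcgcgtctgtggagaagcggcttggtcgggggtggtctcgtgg
NUSAP1: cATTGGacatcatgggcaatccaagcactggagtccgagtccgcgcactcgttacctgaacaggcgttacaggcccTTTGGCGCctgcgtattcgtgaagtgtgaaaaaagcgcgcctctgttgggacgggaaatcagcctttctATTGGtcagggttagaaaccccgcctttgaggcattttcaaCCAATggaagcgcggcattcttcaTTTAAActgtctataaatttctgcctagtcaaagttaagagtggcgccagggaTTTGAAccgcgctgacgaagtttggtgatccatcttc

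In CDC20 a CHR stood at -65 to -60 and a CCAAT box at -55 to -51 from the start site. CKS2 and CKS1B, which encode closely related proteins, each carried a CHR close to the start site, at -29 to -24 and -30 to -25, with 3 and 5 CCAAT boxes upstream. The CHR of CDCA8, at -23 to -18, shared its last base with the CCAAT box at -18 to -14 on the opposite strand. NUSAP1 was the only gene of these 6 with an E2F match, at -174 to -167. A promoter in the RefSeq table matched 50 of the 59 genes by symbol. A CHR was present in 74.0% of these 50 and in 24.0% of all 35116 promoters of that table, and a CCAAT box in 72% against 34.6%. E2F matches were found in 6.0% of the 50 and in 3.31% of all promoters. Split by the direction of change with paclitaxel, a CHR was in 80.0% of 20 promoters of genes that rose, 62.5% of 16 that fell and 78.6% of 14 that were not called. The CCAAT box was in 75.0%, 75.0% and 64.3% of the same promoters. In the window scanned for each, FBXO5 and CDC25C, which fell, and TACC3, which rose, had no match to a CHR, a CCAAT box or an E2F site. The RefSeq table holds 2 promoters for FBXO5 and 4 for CDC25C, and only the first was scanned. The TACC3 window ends at chr4:1720680, before the GENCODE start of the gene at 1721490. Matches outside these windows would be missed. All promoter values here are counts of letters in a window and no test was made.

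Levels are given as CPM, the count relative to a library total scaled by TMM factors, with n = 4 for each mean ± SD. Differences are log2 fold changes ± SE from the edgeR quasi-likelihood test, with p-values adjusted by the Benjamini-Hochberg method over all 17991 genes and a call at an adjusted p under 0.05. For levels between genes, CPM were divided by exon length in kilobases. On that scale UBE2C, the ubiquitin-conjugating enzyme of the APC/C, was highest in DMSO at 197, followed by the spindle assembly factor TPX2 at 180.3, the importin KPNA2 at 177, CDC20 at 159 and UBE2S at 118. The lowest were CDCA2 at 8.81, HMMR at 7.15, CDC25C at 6.49 and SPC25 at 0.744 CPM per kilobase. SPC25 stood on 2 identifiers that divide its reads, so its level is uncertain.

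The 59 genes took 1.14% and 1.12% of all counts in DMSO replicates 1 and 2 and 1.17% and 1.15% in replicates 3 and 4. Their shares were 1.19%, 1.26%, 1.18% and 1.25% with afatinib, and 1.18%, 1.31%, 1.23% and 1.16% with paclitaxel. With the combination they were 1.51%, 1.60%, 1.60% and 1.52%. On these raw totals every combination library lay above all 12 others, and every afatinib library lay above every DMSO library. The paclitaxel range overlapped those of DMSO and afatinib. CPM elsewhere use totals scaled by TMM factors, which were 1.06, 1.09, 0.987 and 1.01 for afatinib and 1.00, 1.01, 0.982 and 0.935 for DMSO. On totals so scaled, the afatinib and DMSO ranges overlap. Means were 1.15 ± 0.02% for DMSO, 1.22 ± 0.04% for afatinib, 1.22 ± 0.07% for paclitaxel and 1.56 ± 0.05% for the combination (SD, n = 4). In bulk RNA, more cells in mitosis and more RNA of these genes per cell cannot be told apart.

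**Figure D1:**
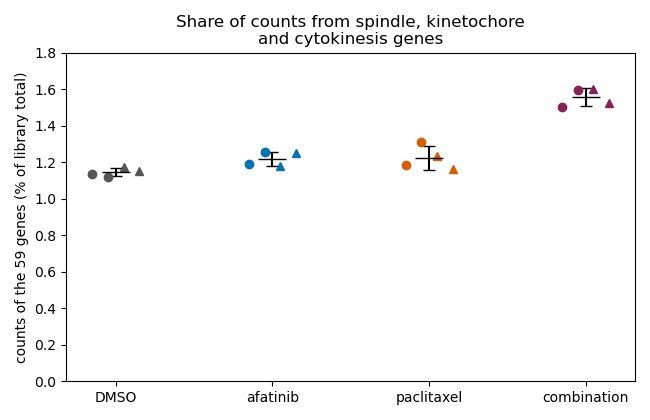
Share of each library's counts (vertical axis, % of the library total) that fell on the 59 genes, by treatment group. Circles are replicates 1 and 2, triangles replicates 3 and 4, and bars the mean ± SD of 4 libraries. The combination libraries, at 1.51% to 1.60%, sit above all others.

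Paclitaxel alone split the genes. Against DMSO 25 rose, 19 fell and 15 were not called. Of all genes tested 8.65% rose and 11.9% fell in this comparison. The median log2 fold change of the 59 genes was 0.12 (0.18 in replicates 1 and 2, 0.04 in replicates 3 and 4) beside 0.00 for all genes. Without paclitaxel replicate 2 it was 0.07, and in the deposited log2 table, which the authors adjusted for RNA concentration, it was 0.02. Values of the 4 DMSO and 4 paclitaxel libraries did not overlap for 14 genes that were higher and 13 that were lower, and such separation was seen in 4.50% and 5.21% of all genes. With RNA concentration as a further covariate 17 rose and 14 fell, and with replicates 3 and 4 alone 9 rose and 10 fell. The covariate ended the calls of ESPL1, CDC25C, BIRC5, CENPA, CENPM, NUF2, PSRC1, ASPM, KPNA2, SMC4, CDCA5, CDCA3 and DEPDC1. A limma fit of the deposited log2 table kept 31 of these 44 calls, lost 9 with the same sign, lost 4 with the sign changed, and added MAD2L1, ANLN, NCAPD2 and FOXM1. There ESPL1 (-0.14) and ASPM (-0.12) were below 0 and CENPM (0.015) and CDCA5 (0.0041) above it. With the replicate number as a block CDC25B, ANLN and MYBL2 were called lower as well and HMMR higher, and no call was lost.

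**Figure D2:**
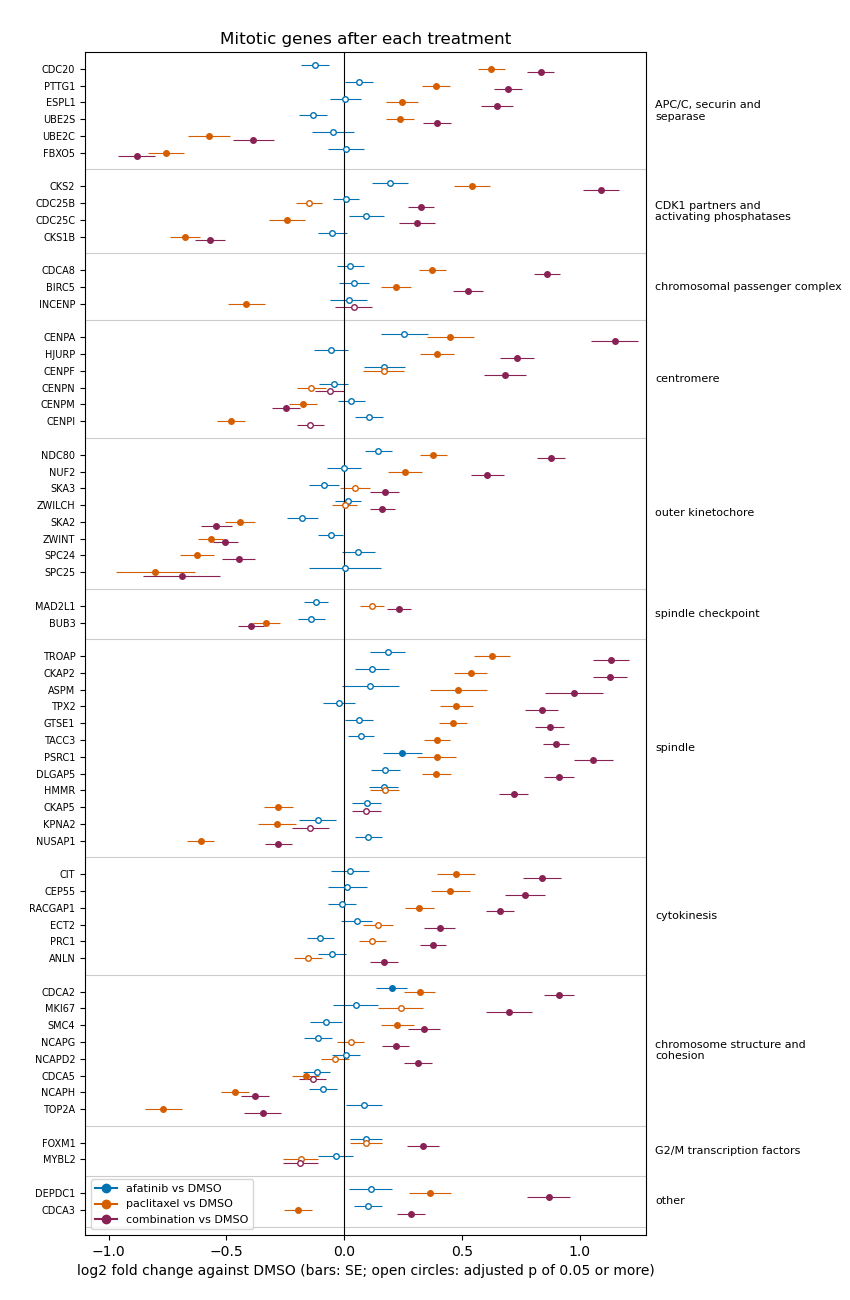
Log2 fold change against DMSO (horizontal axis) for each of the 59 genes (vertical axis, grouped by role) with afatinib, paclitaxel and the combination. Filled points are calls at an adjusted p under 0.05 in edgeR, open points are not called and bars are ± SE. Afatinib points lie near 0, paclitaxel points fall on both sides, and combination points lie to the right of the paclitaxel points for most genes.

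Among the 6 genes of the APC/C, securin and separase, 4 rose with paclitaxel and 2 fell. CDC20 (ENSG00000117399, chr1:43358955-43363203), which activates the APC/C and is the protein that the spindle checkpoint holds back, was at 345, 377, 288 and 284 CPM in DMSO replicates 1 to 4. It was at 539, 570.2, 476 and 407 CPM with paclitaxel. All 4 paclitaxel libraries were above all 4 of DMSO, and the log2 fold change was 0.62 ± 0.06, adjusted p = 3.24e-08. FBXO5 (chr6:152970519-152983579) encodes EMI1, an inhibitor of the APC/C. It was at 48.5, 50.9, 49.8 and 43.4 CPM in DMSO and 25.2, 27.01, 30.8 and 31.8 CPM with paclitaxel. Every paclitaxel library was below every DMSO library (-0.76 ± 0.08, adjusted p = 1.5e-07). The enzymes that pass ubiquitin to APC/C substrates went opposite ways, UBE2C by -0.57 ± 0.09 and UBE2S, which extends the chains, by 0.24 ± 0.06. Securin (PTTG1, 0.39 ± 0.06) and separase (ESPL1, 0.24 ± 0.07) both rose. The ESPL1 call was lost without paclitaxel replicate 2 (adjusted p = 0.0711). Between 4.75 and 6.24% of reads of the UBE2S family fell on its pseudogenes.

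The CDK1 subunits CKS1B and CKS2 separated. CKS2 (chr9:89311198-89316703) was at 69.6, 66.6, 47.3 and 48.01 CPM in DMSO and 112, 105, 65.4 and 60.7 CPM with paclitaxel. These ranges overlapped, with replicates 1 and 2 of DMSO above replicates 3 and 4 of paclitaxel, and with the set in the fit the change was 0.54 ± 0.08, adjusted p = 1.55e-05. With afatinib CKS2 was at 75.4, 82.2, 51.1 and 56.4 CPM, and with the combination at 159, 174, 95.2 and 79.99 CPM, the latter overlapping paclitaxel. CKS1B (chr1:154974653-154979249) was at 148, 138, 96.7 and 98.1 CPM in DMSO and 95.1, 77.04, 63.05 and 63.6 CPM with paclitaxel, with no overlap (-0.68 ± 0.06, adjusted p = 3.34e-08). The ratio of CKS2 to CKS1B counts, chosen after their values were seen and so not tested, was 0.470, 0.484, 0.489 and 0.489 in DMSO and 0.521, 0.606, 0.588 and 0.576 with afatinib. It was 1.18, 1.36, 1.04 and 0.954 with paclitaxel and 1.77, 1.78, 1.36 and 1.22 with the combination. The DMSO, afatinib and paclitaxel ranges did not overlap one another, while those of paclitaxel and the combination did. Pseudogene copies held 3.44 to 4.59% of CKS1B family reads. CDC25C, a phosphatase that activates CDK1, fell by 0.24 ± 0.08, a call lost in 5 of the 16 fits that each left out a library. Its relative CDC25B had a value of -0.15 ± 0.06.

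Of the chromosomal passenger complex, which corrects faulty attachments, CDCA8 (borealin) and BIRC5 (survivin) rose and the scaffold INCENP fell. CDCA8 (chr1:37692418-37709719) was at 141, 141, 125 and 129.5 CPM in DMSO and 180.03, 194, 171 and 151 CPM with paclitaxel. The groups did not overlap (0.37 ± 0.06, adjusted p = 2.53e-05). INCENP was at 174, 157, 213 and 234 CPM in DMSO and 119, 110.3, 178 and 185 CPM with paclitaxel. The ranges overlapped, and the fall was -0.42 ± 0.08, adjusted p = 0.000492, with -0.53 and -0.30 within replicates 1 and 2 and within replicates 3 and 4. BIRC5 was at 178, 181, 133 and 122 CPM in DMSO and 218, 228, 145 and 134 CPM with paclitaxel. Its groups overlapped, and its call (0.22 ± 0.06, adjusted p = 0.0146) was lost without DMSO replicate 1 (0.0520) or paclitaxel replicate 2 (0.0521). BIRC5 was at 191, 187, 121 and 135 CPM with afatinib and 274, 291, 181 and 153 CPM with the combination, which again overlapped.

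Of the 6 centromere genes, CENPA, the histone H3 variant of centromeres, and HJURP, the chaperone that places it, rose (0.45 ± 0.10 and 0.39 ± 0.07). CENPI and CENPM, subunits of the constitutive centromere network, fell (-0.48 ± 0.06 and -0.18 ± 0.06), and CENPM lost its call when any of 6 libraries was left out. HJURP was at 139.9, 148, 165 and 186 CPM in DMSO and 185, 233, 211 and 205 CPM with paclitaxel, with overlap between the groups. CENPI was at 53.1, 48.2, 65.2 and 64.8 CPM in DMSO and 37.9, 39.9, 42.5 and 44.2 CPM with paclitaxel, all below DMSO. CENPN (-0.14 ± 0.06) and CENPF (0.17 ± 0.09), a large protein of the kinetochore corona, were not called.

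The outer kinetochore split within a single complex. NDC80 and NUF2, the pair of the NDC80 complex that binds microtubules, rose by 0.38 ± 0.06 and 0.26 ± 0.07. SPC24 and SPC25, the pair that anchors the same complex at the centromere, fell (-0.63 ± 0.07 and -0.80 ± 0.17). The SPC25 value is less certain, since the identifier used held only 16 to 75 counts per library and another identifier shares its reads. NDC80 was at 70.98, 72.5, 72.7 and 77.96 CPM in DMSO and 89.4, 107, 94.95 and 90.5 CPM with paclitaxel. SPC24 was at 25.7, 25.2, 26.1 and 25.8 CPM in DMSO and 18.1, 16.2, 15.8 and 16.6 CPM with paclitaxel. Neither gene's groups overlapped. Without paclitaxel replicate 2 the NUF2 call was lost (adjusted p = 0.0860). ZWINT, which links the RZZ complex to the kinetochore, was at 213, 221, 188 and 179 CPM in DMSO and 140.5, 142, 124 and 133 CPM with paclitaxel, again without overlap (-0.57 ± 0.05, adjusted p = 4.28e-08). SKA2, of the SKA complex on spindle microtubules, fell by 0.44 ± 0.07, whereas SKA3 (0.05 ± 0.06) and the RZZ subunit ZWILCH (0.00 ± 0.05) were not called. Of the checkpoint genes, BUB3 was at 325, 310.4, 280.3 and 273 CPM in DMSO and 259, 227, 229 and 228 CPM with paclitaxel. All paclitaxel libraries were below DMSO (-0.33 ± 0.06, adjusted p = 0.000132), and the checkpoint effector MAD2L1 had a value of 0.12 ± 0.05.

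Spindle genes mostly rose, 8 of 12, with a median log2 fold change of 0.39. TROAP, a microtubule-associated protein, was at 78.96, 78.8, 79.6 and 92.3 CPM in DMSO and 125, 139, 115 and 128 CPM with paclitaxel. The groups did not overlap (0.63 ± 0.08, adjusted p = 1.85e-06). CKAP2 (0.54 ± 0.07), a protein of spindle poles, TPX2 (0.48 ± 0.07), the activator of Aurora A, and ASPM (0.48 ± 0.12), a spindle pole protein, rose as well, as did GTSE1, DLGAP5, TACC3 and PSRC1 with values of 0.39 to 0.46. Another 3 fell. NUSAP1 (chr15:41332694-41381050), which bundles microtubules near chromosomes, was at 150.3, 149.97, 151 and 143 CPM in DMSO and 96.3, 92.3, 101 and 100.3 CPM with paclitaxel. Its groups did not overlap (-0.61 ± 0.06, adjusted p = 3.34e-08). The microtubule polymerase CKAP5 (-0.28 ± 0.06) and KPNA2 (-0.29 ± 0.08), an importin that holds TPX2, were the others, and HMMR, which binds TPX2, was not called (0.17 ± 0.06). KPNA2 lost its call without paclitaxel replicate 2 (adjusted p = 0.0511).

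For cytokinesis, CIT (citron kinase), CEP55 (an organiser of abscission) and RACGAP1 (a subunit of centralspindlin) rose by 0.48 ± 0.08, 0.45 ± 0.08 and 0.32 ± 0.06. CIT was at 97.1, 93.8, 138 and 160.4 CPM in DMSO and 125, 161, 188 and 197 CPM with paclitaxel, with overlap. PRC1 (0.12 ± 0.06), which bundles the central spindle, ECT2 (0.14 ± 0.06), the exchange factor for RhoA, and the scaffold ANLN (-0.15 ± 0.06) were not called.

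Among the 8 genes of chromosome structure and cohesion, TOP2A, NCAPH and CDCA5 fell and CDCA2 and SMC4 rose. TOP2A (chr17:40388516-40417950), the topoisomerase that untangles sister chromatids, was at 518, 482, 632 and 654 CPM in DMSO and 290.5, 271, 383 and 408 CPM with paclitaxel. All paclitaxel libraries were below all DMSO libraries, and the log2 fold change was -0.77 ± 0.08, adjusted p = 1.38e-07. The condensin I subunit NCAPH fell by 0.46 ± 0.06, beside 0.03 ± 0.06 for NCAPG and -0.04 ± 0.06 for NCAPD2 of the same complex and 0.23 ± 0.07 for SMC4, which both condensins share. CDCA2, which recruits a phosphatase to chromatin at mitotic exit, rose (0.32 ± 0.07), and CDCA5 (sororin), which protects cohesion, fell (-0.16 ± 0.06). CDCA5 was called in only 8 of the 16 fits that each left out a library, and SMC4 lost its call without DMSO replicate 2 (0.0906) or paclitaxel replicate 2 (0.136). MKI67, the coat protein of mitotic chromosomes, was at 580.5, 469.98, 815 and 934 CPM in DMSO and 554, 684, 1021 and 1044 CPM with paclitaxel. These ranges overlapped widely and MKI67 was not called (0.24 ± 0.10), though it was called higher in 2 of the 16 fits that each left out a library. With afatinib MKI67 was at 518, 570.03, 901 and 904 CPM, and with the combination at 726, 719, 1529 and 1778 CPM (0.70 ± 0.10 against DMSO), with overlap.

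The transcription factors of this program were not called with paclitaxel in the main fit. In the limma fit of the deposited log2 table FOXM1 was called higher. FOXM1 was at 355, 354, 275 and 229.7 CPM in DMSO and 381, 403, 273 and 246 CPM with paclitaxel (0.09 ± 0.07, adjusted p = 0.367). MYBL2 was at 79.3, 79.3, 63.7 and 51.3 CPM in DMSO and 63.97, 63.1, 58.4 and 52.8 CPM with paclitaxel (-0.19 ± 0.08, adjusted p = 0.0842). Both pairs of ranges overlapped. MYBL2 was called lower without DMSO replicate 4 (-0.26, adjusted p = 0.0105) or paclitaxel replicate 3 (-0.24, adjusted p = 0.0328). DEPDC1 was at 130.2, 131, 140.2 and 147 CPM in DMSO and 182, 222, 159 and 149 CPM with paclitaxel. Its paclitaxel libraries were all above DMSO. DEPDC1 rose by 0.36 ± 0.09 and CDCA3, a trigger of mitotic entry, fell by 0.20 ± 0.06, a call lost without DMSO replicate 2, paclitaxel replicate 1 or paclitaxel replicate 3.

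With the combination, 40 genes rose, 12 fell and 7 were not called against DMSO. Of all genes 18.5% rose and 19.5% fell, together 38%. The median of the 59 genes was 0.34 (0.40 in replicates 1 and 2, 0.35 in replicates 3 and 4). Libraries did not overlap for 27 genes above and 8 below DMSO, beside 8.31% and 8.49% of all genes. All 6 cytokinesis genes rose, as did 9 of 12 spindle genes, whose median was 0.89. Of the outer kinetochore genes 4 rose and 4 fell. Without a set term 26 rose and 7 fell.

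The largest fold changes in that comparison were those of CENPA (1.15 ± 0.10), TROAP (1.13 ± 0.08), CKAP2 (1.13 ± 0.07), CKS2 (1.09 ± 0.08) and PSRC1 (1.06 ± 0.08), each above 1 on the log2 scale. CKAP2 (chr13:52455429-52476628) was at 274, 265, 280.2 and 265 CPM in DMSO and 562, 594, 639 and 573 CPM with the combination. TACC3 (chr4:1721490-1745176), which joins clathrin and CKAP5 to cross-link spindle fibres, was at 208, 217, 211 and 213 CPM in DMSO and 378, 406, 424 and 377 CPM with the combination. Both genes were separated between the groups, with 0.90 ± 0.06, adjusted p = 4.8e-12 for TACC3. CDCA8 reached 246, 261, 244 and 221 CPM (0.86 ± 0.06) and NDC80 reached 129, 137, 136 and 138 CPM (0.88 ± 0.06). DLGAP5 (HURP), which stabilises fibres at kinetochores, was at 153, 155, 159 and 150.3 CPM in DMSO and 293, 305, 292 and 270.3 CPM with the combination (0.91 ± 0.06). None of these 3 genes overlapped between DMSO and the combination.

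Genes below DMSO with the combination were the APC/C inhibitor FBXO5, at 23.3, 23.4, 27.6 and 30.9 CPM (-0.88 ± 0.08), and ZWINT, at 156, 155, 123 and 131 CPM (-0.50 ± 0.05). SKA2 was at 188, 179, 139.8 and 108 CPM in DMSO and 128, 126, 88.7 and 80.4 CPM with the combination, with overlap (-0.54 ± 0.07). CKS1B, at 89.7, 97.6, 69.9 and 65.5 CPM, fell by 0.57 ± 0.06 and its groups overlapped. BUB3, at 233, 227, 219 and 223 CPM, fell by 0.40 ± 0.06 without overlap. SPC24 (-0.45 ± 0.07), SPC25 (-0.69 ± 0.16), UBE2C (-0.39 ± 0.09), NUSAP1 (-0.28 ± 0.06), TOP2A (-0.35 ± 0.08), NCAPH (-0.38 ± 0.06) and CENPM (-0.25 ± 0.06) completed the 12. The 7 genes not called were INCENP, CENPN, CENPI, CKAP5, KPNA2, CDCA5 and MYBL2. With the replicate number as a block CENPI, CDCA5 and MYBL2 were called lower too. MYBL2 was also called lower in 5 of the 16 fits that each left out a library.

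**Figure D3:**
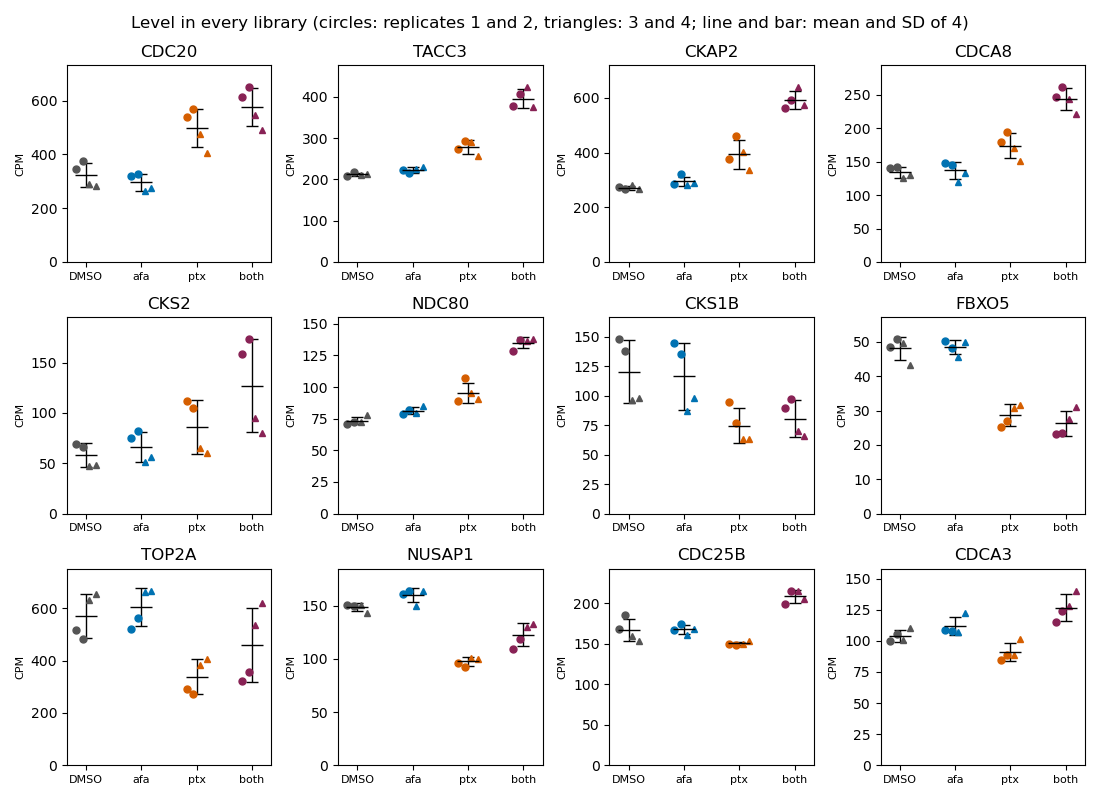
Level in each of the 16 libraries (vertical axes, CPM from 0) by treatment group (afa is afatinib, ptx paclitaxel and both the combination) for 12 genes. Circles are replicates 1 and 2, triangles replicates 3 and 4, and bars the mean ± SD of 4 libraries. Combination libraries are above all others for CKAP2, TACC3 and CDCA8, and FBXO5 is low with paclitaxel and the combination.

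Afatinib alone changed few of the genes. Against DMSO 2 rose, none fell and 57 were not called, beside 9% higher and 10.1% lower among all genes. At an unadjusted p under 0.05 the same edgeR test had 8 higher and 6 lower, and DESeq2 called 2 higher and 3 lower. The median was 0.02, and -0.002 without afatinib replicate 2. Libraries did not overlap for 5 genes above and 1 below DMSO, beside 4.64% and 4.08% of all genes. CDCA2 was at 33.1, 30.98, 35.8 and 37.8 CPM in DMSO and 37.95, 39.7, 38.3 and 42.02 CPM with afatinib, and PSRC1, which promotes microtubule growth in the spindle, was at 65.99, 75.3, 68.4 and 73.3 CPM in DMSO and 79.2, 89.4, 77.5 and 89.6 CPM with afatinib. Neither gene's groups overlapped (0.20 ± 0.07, adjusted p = 0.0323 for CDCA2 and 0.25 ± 0.08, adjusted p = 0.0391 for PSRC1). Leaving out a library removed the CDCA2 call in 5 of 16 fits and the PSRC1 call in 6. With the replicate number as a block 6 other genes were also called, NDC80, HMMR, DLGAP5 and TROAP as higher and SKA2 and BUB3 as lower, which made 6 higher and 2 lower. With RNA concentration as a covariate neither CDCA2 nor PSRC1 was called.

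The effect of afatinib in cells given paclitaxel is the combination against paclitaxel. Of the 59 genes 41 were higher in the combination than in paclitaxel, 0 were lower and 18 were not called, beside 12.6% and 11.6% of all genes and 24.2% in either direction. At an unadjusted p under 0.05 there were 45 higher and 0 lower in edgeR, and DESeq2 called 42 higher and 0 lower. The median was 0.34 (0.25 in replicates 1 and 2, 0.38 in replicates 3 and 4) beside -0.01 for all genes. Libraries did not overlap for 18 of the 59 genes, all higher, beside 5.70% higher and 5.74% lower among all genes. Without a set term 18 were called higher, and with the replicate number as a block UBE2S and SPC24 were added. Rises covered 11 of 12 spindle genes, all 6 cytokinesis genes and all 3 genes of the passenger complex.

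CDCA2 was at 38.4, 48.00, 42.9 and 42.1 CPM with paclitaxel and 60.6, 64.2, 65.9 and 67.9 CPM with the combination (0.59 ± 0.06, adjusted p = 4.19e-07). TACC3 was at 273, 294, 289.9 and 257 CPM with paclitaxel, below all 4 combination libraries listed above (0.51 ± 0.06). HMMR, at 30.4, 31.7, 31.9 and 31.9 CPM with paclitaxel, was at 43.1, 42.4, 48.2 and 50.9 CPM with the combination (0.55 ± 0.06). CDCA8 (0.49 ± 0.06) and NDC80 (0.50 ± 0.06) were likewise separated between these groups. CENPA had the highest fold change (0.70 ± 0.10), from 44.6, 50.5, 24.4 and 23.99 CPM to 74.5, 78.7, 45.4 and 34.2 CPM, with overlap between the groups but none within either pair of replicates. CDC20 rose by 0.21 ± 0.06, a call lost without paclitaxel replicate 4 (adjusted p = 0.0582). FBXO5 (-0.12 ± 0.08), SKA2 (-0.10 ± 0.07), CENPM (-0.07 ± 0.06), BUB3 (-0.06 ± 0.06) and ZWINT (0.06 ± 0.05) were among the 18 not called.

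Some genes that fell with paclitaxel alone were higher when afatinib was added. Both comparisons use the same paclitaxel libraries, so the second is not independent of the first. Against paclitaxel, the 19 genes that fell had a median of 0.14 (-0.12 to 0.55), beside 0.41 for the 25 that rose. Most of the 19 were not called there, namely BUB3, CDCA5, CENPM, CKS1B, FBXO5, KPNA2, NCAPH, SKA2, SPC24, SPC25, UBE2C and ZWINT. TOP2A was at 521, 564, 661 and 668 CPM with afatinib and 322, 358, 536 and 622 CPM with the combination, 0.42 ± 0.08 above paclitaxel and -0.35 ± 0.08 against DMSO. NUSAP1, at 109.6, 118, 129.7 and 133 CPM, was 0.33 ± 0.06 above paclitaxel and did not overlap it. INCENP, at 139.7, 153, 243 and 287 CPM, was 0.46 ± 0.08 above paclitaxel and 0.04 ± 0.08 against DMSO. CENPI, at 45.6, 49.8, 54.4 and 58.7 CPM, was 0.34 ± 0.06 above paclitaxel.

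The effect of paclitaxel in cells given afatinib is the combination against afatinib, which shares no library with paclitaxel against DMSO. There 40 genes rose, 13 fell and 6 were not called, beside 13.1% and 14.3% of all genes, with a median of 0.35 (0.38 in replicates 1 and 2, 0.36 in replicates 3 and 4). Libraries did not overlap for 25 genes above and 7 below afatinib, beside 5.64% and 6.89% of all genes. Without a set term 22 rose and 6 fell, so 25 of the 53 calls were lost, and 11 were lost in the limma fit of the deposited log2 values. All 25 genes that rose with paclitaxel alone rose here, and they made up 25 of the 40. Of the 19 that fell with paclitaxel alone, 13 fell here, the CDK1 phosphatase CDC25C (0.22 ± 0.07) and CDCA3 (0.18 ± 0.06) rose, and CDCA5, CKAP5, INCENP and KPNA2 were not called. The CDC25C call was lost when any of 6 libraries was left out, and that of CDCA3 without afatinib replicate 3 or combination replicate 4. Of the 15 not called with paclitaxel alone, 13 rose here, and CENPN and MYBL2 were not called.

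CDC20 was at 319, 328, 262 and 275 CPM with afatinib and 612, 650.00, 548 and 489 CPM with the combination (0.96 ± 0.06, adjusted p = 9.93e-12). GTSE1, a microtubule protein that also binds p53, was at 103, 115, 114 and 124 CPM with afatinib and 188, 201, 209.98 and 200.2 CPM with the combination (0.81 ± 0.06). Neither gene's groups overlapped, and those of CKAP2 (1.01 ± 0.07), CDCA8 (0.83 ± 0.06) and TACC3 (0.83 ± 0.06) did not either. CKAP2 was at 286, 320.1, 282 and 290.3 CPM with afatinib, CDCA8 at 148, 145, 120.00 and 133 CPM and TACC3 at 223, 214, 225 and 230.2 CPM. In the other direction FBXO5 (-0.89 ± 0.08), ZWINT (-0.45 ± 0.05), SPC24 (-0.51 ± 0.07), CKS1B (-0.52 ± 0.06) and NUSAP1 (-0.38 ± 0.06) fell. With afatinib FBXO5 was at 50.2, 48.2, 45.8 and 49.9 CPM, ZWINT at 212, 195, 172 and 189.7 CPM, CKS1B at 145, 136, 87.00 and 98.02 CPM and NUSAP1 at 161, 164, 149.9 and 164 CPM. CKS1B was the only gene of these 5 whose afatinib and combination libraries overlapped. SPC24 was at 27.9, 23.5, 27.8 and 27.8 CPM with afatinib and 19.2, 20.7, 17.1 and 18.2 CPM with the combination, without overlap. FOXM1, at 389.6, 369.7, 254 and 281 CPM with afatinib and 472, 463, 338 and 271 CPM with the combination, rose by 0.24 ± 0.07, and the call was lost without combination replicate 3 (adjusted p = 0.0503). MYBL2, at 83.99, 72.9, 56.5 and 53.9 CPM with afatinib and 63.8, 63.3, 57.8 and 53.2 CPM with the combination, was not called (-0.15 ± 0.08).

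The interaction tests whether the log2 change with paclitaxel differed between cells with and without afatinib. It was above 0 for 57 of 59 genes, with FBXO5 (-0.13 ± 0.11) and CENPM (-0.10 ± 0.08) as exceptions, and passed the test for 16, all positive. Of all genes 0.389% were called positive and 0.495% negative. None of the 59 was negative at an unadjusted p under 0.05 either, where 44 were positive, and DESeq2 called 25 positive and 0 negative. The median was 0.33 (0.23 in replicates 1 and 2, 0.38 in replicates 3 and 4), beside 0.01 for all genes. With the replicate number as a block 26 were called, since UBE2S, INCENP, HJURP, NUF2, TPX2, DLGAP5, TROAP, PSRC1, CIT and NCAPG were added. Neither set of replicates alone gave a call, and the fit without a set term gave 0 calls with 21 genes at an unadjusted p under 0.05.

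CDC25B (chr20:3786772-3806121), the phosphatase that starts CDK1 activation, had the smallest p among the 59. It was at 168, 185, 159.9 and 154 CPM in DMSO and 167, 175, 160.5 and 168 CPM with afatinib, and these ranges overlapped. With paclitaxel it was at 149.7, 148, 150.1 and 153 CPM, and with the combination at 199, 215, 216 and 205 CPM. All combination libraries were above all others, and all paclitaxel libraries were below all others. The interaction was 0.47 ± 0.08, adjusted p = 0.003, and 0.51 and 0.41 within replicates 1 and 2 and within replicates 3 and 4. CDCA8 (0.46 ± 0.08, adjusted p = 0.00376) and TACC3 (0.44 ± 0.08, adjusted p = 0.00614) followed.

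CDC25B, CDCA8 and TACC3 were the only interaction calls held in all 16 fits that each left out a library. CKAP2 was at 375, 460.4, 401 and 337 CPM with paclitaxel, below its combination libraries. CKAP2 (0.47 ± 0.10), PRC1 (0.36 ± 0.08) and CDCA3 (0.38 ± 0.08) lost their calls in 5 to 7 of those fits. CDCA3 was at 99.7, 106, 100.4 and 109.97 CPM in DMSO, 109, 108, 107 and 122 CPM with afatinib, 84.8, 88.7, 88.6 and 101 CPM with paclitaxel and 115, 124, 128 and 140.4 CPM with the combination. Its combination libraries were above all paclitaxel libraries. CDC25C (0.46 ± 0.11), ESPL1 (0.40 ± 0.10), CDCA2 (0.39 ± 0.09), HMMR (0.38 ± 0.09), ANLN (0.37 ± 0.08), NDC80 (0.36 ± 0.08), RACGAP1 (0.35 ± 0.08), GTSE1 (0.35 ± 0.08), NCAPD2 (0.34 ± 0.08) and CDC20 (0.33 ± 0.08) lost theirs in 9 to 13. The count of 16 fell to 10 without DMSO replicate 1, to 9 without afatinib replicate 4 and to 7 without afatinib replicate 2 or paclitaxel replicate 3. It was 5 without DMSO replicate 4, 4 without afatinib replicate 1, paclitaxel replicate 4 or combination replicate 2, and 3 without afatinib replicate 3, paclitaxel replicate 1 or combination replicate 3. Without paclitaxel replicate 2 it was 25.

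**Figure D4:**
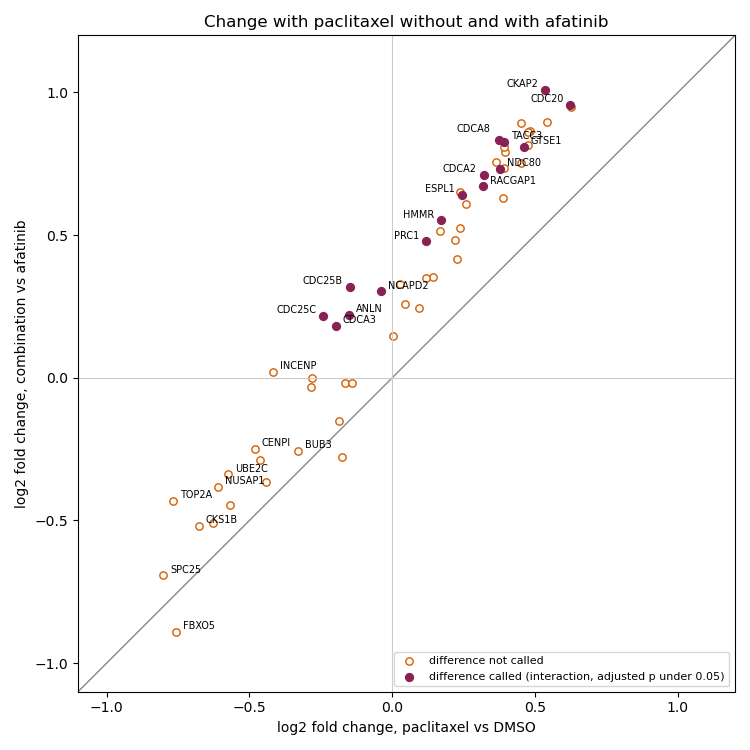
Log2 fold change with paclitaxel against DMSO (horizontal axis) and of the combination against afatinib (vertical axis) for each of the 59 genes, with the line of equal values. Filled points are the 16 genes whose interaction was called in edgeR. All but 2 points lie above the line. Of the filled points, ANLN, CDC25B, CDC25C, CDCA3 and NCAPD2 lie below 0 on the horizontal axis and above 0 on the vertical axis.

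Other genes of mitosis were taken from lists of kinases, cyclins and kinesins (28 tested), of other kinetochore and centromere proteins (26) and of other spindle, cytokinesis and chromosome proteins (29). With paclitaxel 14 of the 28 rose and 6 fell. Of the 26, 4 rose and 7 fell, and of the 29, 5 rose and 11 fell. Over all genes 8.65% rose and 11.9% fell. The kinesins KIF20A (0.85 ± 0.07), needed in cytokinesis, and KIF18A (0.74 ± 0.06), which limits microtubule length, and cyclin B1 (CCNB1, 0.69 ± 0.06) rose. CDK1 (-0.74 ± 0.07), the kinase MELK (-0.60 ± 0.06) and the kinetochore subunit DSN1 (-0.58 ± 0.06) fell. In the combination against DMSO 23 of the 28 rose and 3 fell. Of the 26, 10 rose and 8 fell, and of the 29, 11 rose and 7 fell, beside 18.5% and 19.5% of all genes. The median log2 fold changes of these lists were 0.57, 0.04 and 0.06. Values were 1.36 ± 0.07 for KIF20A, 1.30 ± 0.06 for KIF18A and 1.10 ± 0.06 for CCNB1. The kinase PKMYT1, an inhibitor of CDK1, fell by 0.96 ± 0.07.

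Against paclitaxel the combination was higher in 23 of the 28, 9 of the 26 and 12 of the 29, and lower in 1, 1 and 0, beside 12.6% and 11.6% of all genes. KIF2C (0.55 ± 0.05), a microtubule depolymerase, KIF11 (0.53 ± 0.05), the motor that separates spindle poles, and KIF15 (0.53 ± 0.06) rose, while PKMYT1 (-0.40 ± 0.07) and DSN1 (-0.18 ± 0.06) fell. The interaction was called in 12 of the 28, 3 of the 26 and 2 of the 29, each time positive, beside 0.389% positive and 0.495% negative among all genes, with 0.49 ± 0.07 for KIF2C, 0.41 ± 0.08 for the kinase PLK1 and 0.39 ± 0.08 for KIF11. With afatinib alone 3, 1 and 2 rose and 1 fell, CDC27, an APC/C subunit (-0.18 ± 0.06). These 6 rises and 1 fall among 83 genes are no larger a share than the 9% and 10.1% of all genes. CLASP1 (0.24 ± 0.05), which holds microtubule ends at kinetochores, AURKB (0.27 ± 0.06), the kinase of the passenger complex, and BORA (0.31 ± 0.08), the activator of Aurora A, were among those that rose.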

How the data were processed

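RNA was sequenced from 16 libraries. The authors deposited whole-number counts per gene. The submitters' processing notes name the aligner STAR 2.7.5b, featureCounts of Subread 2.0.1 and the build hg38. The strand setting is not given in the sources used here, so reads of overlapping genes cannot be told apart. A deposited log2 table with values adjusted by the authors for RNA concentration was used as an alternative, and gene lengths come from the deposited count table. Genes without a symbol held 0.036 to 0.0462% of counts. Genes were kept by filterByExpr (minimum count 10, minimum total 15), scaled with TMM and fitted in edgeR 4.0.16 (R 4.3.3) by the quasi-likelihood test on group and set over all 16 libraries, with Benjamini-Hochberg adjustment. The biological coefficient of variation was 7.41%. Each SE was taken as |log2 fold change| over the root of the F statistic. The edgeR fit was also run on simulated counts with changes placed in the paclitaxel group. That run covered paclitaxel against DMSO and not the interaction, and its outcome is not given here. Within groups, χ² per gene between libraries was 6.62 to 336, well above sampling noise.

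The members and lists were chosen with earlier results of these data known. Values of every library of the groups compared are given for the called gene with the smallest p in each direction per role with paclitaxel, for the 5 with the smallest p per direction in each other comparison, and in all 4 groups for CDC20, BIRC5, FOXM1, MYBL2, TOP2A, MKI67, CKS1B and CKS2. Of the other mitotic lists, the 3 with the smallest p per direction are named. CENPA was added after its values were seen. The labels number the replicates alike in every group. Deviations from group means correlated by 0.37 to 0.70 between libraries of the same number (24 pairs, median 0.59). Between different numbers of the same set they correlated by 0.38 to 0.67 (24 pairs, median 0.50). The median was higher for the same number, but the ranges overlap widely. These values cannot tell whether libraries of the same number are paired. The main fit holds the set and not the number. The fit with the number as a block is given where it changes a call. Alternatives were another scaling (RLE), DESeq2 1.42.0, no count filter, limma 3.58.1 on the deposited log2 table, the covariates named above and leaving out each library. Positions of genes come from GENCODE v29 on GRCh38. Promoters are from the RefSeq table by symbol, the first where a symbol had several, and 9 genes had no entry.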

Additional observations from a re-analysis of the deposited data

Results flagged for a closer look

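In 31 genes with values of every library, each of the 4 groups was examined for a library far from the other 3, 124 groups in all. For 4 libraries drawn alike, chance marks about 1 in 20 such groups, and 6 were marked. Many genes differed between the pairs of replicates, so that rate need not hold here. BUB3 was at 259.3 CPM in paclitaxel replicate 1 and at 227 to 229 CPM in the other 3. HMMR in the same library was at 30.4 CPM, beside 31.7 to 31.9. TROAP, at 92.3 CPM, was high and NUSAP1, at 143 CPM, was low in DMSO replicate 4. CDCA3 was at 122 CPM in afatinib replicate 4, and SPC24 at 23.5 CPM in afatinib replicate 2, beside 27.8 to 27.9.

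The change with paclitaxel differed between cells with and without afatinib, by the interaction test of edgeR, for 16 genes. Only 3 of these calls, those of CDC25B, CDCA8 and TACC3, held in every fit that left out a library. Without the set term, or in either set alone, 0 were called. The differences on the log2 scale were 0.47 for CDC25B and CKAP2, 0.46 for CDCA8 and CDC25C, 0.44 for TACC3, 0.40 for ESPL1, 0.39 for CDCA2, 0.38 for CDCA3 and HMMR, 0.37 for ANLN, 0.36 for PRC1 and NDC80, 0.35 for RACGAP1 and GTSE1, 0.34 for NCAPD2 and 0.33 for CDC20.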

How the results depend on the processing

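Counts of called genes are given for the 6 comparisons in the order afatinib, paclitaxel and the combination against DMSO, the combination against afatinib and against paclitaxel, and the interaction. Over all genes they were 3432, 3694, 6830, 4935, 4347 and 159. Without the set term they fell to 380, 625, 2310, 1143, 768 and 0, and the genes described here to 0, 10, 26, 22, 18 and 0 higher and to 8, 7 and 6 lower with paclitaxel, the combination against DMSO and the combination against afatinib. In replicates 1 and 2 alone, all-gene counts were 1245, 1779, 2528 (against afatinib), 1974 (against paclitaxel) and 3 (interaction), with 1 gene higher with afatinib and 0 interactions. In replicates 3 and 4 alone they were 527, 796, 3181, 2019, 1298 and 4, with 0 genes higher with afatinib, 9 higher and 10 lower with paclitaxel, 6 lower in the combination against afatinib and 0 interactions. With RNA concentration, all-gene counts were 1923 with paclitaxel and 4103 with the combination, and 0 genes were higher with afatinib. The replicate block, which pairs libraries of the same number, gave 26 interactions here and 501 over all genes, with 6 higher and 2 lower with afatinib, and it lost no call. DESeq2 gave 25 and 367 interactions and 3 genes lower with afatinib. RLE scaling gave 1 lower with afatinib. Without a count filter there were 34 and 479 interactions and 1 lower with afatinib. The deposited log2 table gave 1961 genes with afatinib and 83 interactions over all genes, 0 higher with afatinib and 8 lower in the combination against afatinib. In that table ESPL1 (-0.14), ASPM (-0.12), CENPM (0.015) and CDCA5 (0.0041) changed sign with paclitaxel. INCENP was -0.21 in the combination against afatinib in replicates 1 and 2 alone. The causes were not tested.

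Leaving out each library in turn, genes higher and lower were 0 to 5 and 0 to 2 with afatinib, 21 to 26 and 15 to 21 with paclitaxel, 37 to 40 and 12 to 13 with the combination against DMSO, 37 to 40 and 13 against afatinib, and 38 to 43 and 0 against paclitaxel. Interactions ran from 3 to 25 here, and from 34 (without paclitaxel replicate 4) to 279 (without paclitaxel replicate 2) over all genes. All-gene counts ran from 2512 to 3667, 2966 to 3902, 5967 to 6927, 4027 to 5218 and 3324 to 4655 in the other comparisons. Calls held in every such fit for 35 of 44 genes with paclitaxel, 49 of 52 with the combination, 49 of 53 against afatinib and 37 of 41 against paclitaxel. Further calls lost were ANLN, SKA3 and ZWILCH in the combination against DMSO, ZWILCH in the combination against afatinib, and FOXM1, NCAPG and ZWILCH against paclitaxel. Genes not called with all libraries but called in at least 1 such fit numbered 8 with afatinib, 6 with paclitaxel, 3 with the combination, 0 and 4 for the combination against afatinib and paclitaxel, and 16 for the interaction.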

Other observations

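Some of these genes differed between the pairs of replicates by log2 values as large as those between treatments. In replicates 3 and 4 against replicates 1 and 2, CENPF (0.86), MKI67 (0.85) and ASPM (0.84) were higher, and CENPA (-0.73), CKS2 (-0.70), BIRC5 (-0.62) and SKA2 (-0.60) were lower. In the same order, exon lengths were 11690, 12807 and 10938 bases for the higher genes and 1983, 613, 3815 and 3148 for the lower. INCENP (4473 bases) was also higher (0.59), and BUB3 (8300 bases) was lower (-0.15). A link with length was not tested.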
